A study of Homo sapiens with 47 samples.

Results

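The box H/ACA small nucleolar RNA (snoRNA) genes of HEK293T cells were compared between EAF1-mutant and wild-type cells, each gene beside the gene that hosts it and the chromosome arm it lies on. The genes were chosen by annotation and by level: biotype snoRNA, a symbol starting with SNORA, and a raw count of 10 or more in at least 3 of the 6 libraries. Of 213 SNORA genes in a table of 58395 genes, 132 met this rule, and 33 of the 213 had a count of 0 in all 6 libraries. The 132 genes lie at 129 places, because SNORA16A, SNORA17B and SNORA50A are each annotated in duplicate.

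The series holds 47 samples, of which 6 are used here: 3 wild-type and 3 EAF1-mutant libraries of total RNA depleted of ribosomal RNA. HEK293T is a human embryonic kidney cell line. The mutant cells were made from it by CRISPR knock-in, which replaced by alanines the residues of EAF1 that bind the Mediator subunit MED26, and they are a single clonal line, so that the mutation and the history of the clone cannot be told apart. EAF1 is an ELL-associated factor and a subunit of both the super and the little elongation complex. The study places the little elongation complex at small nuclear RNA genes and replication-dependent histone genes. Total counts were 59137210, 52541541 and 55637032 in the wild-type libraries and 57198018, 53369621 and 66611451 in the mutant libraries. EAF1 RNA itself stood at 57.5, 58.4 and 56.5 normalised counts (CPM, scaled to library size) in wild-type and at 19.7, 17.9 and 18.8 CPM in mutant cells, a log2 fold change of -1.61 (SE 0.05, edgeR adjusted p = 2.48e-18). For the EAF1 protein, the study reports little change by western blot.

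Box H/ACA snoRNAs fold into a pair of hairpins joined by the H box and closed by an ACA near the 3′ end. With dyskerin and its partner proteins they guide the conversion of uridine to pseudouridine in ribosomal RNA, and a few act in cutting the ribosomal RNA precursor. Most human snoRNAs are cut out of introns of a host gene, so that their supply depends on transcription and splicing of the host as well as on their own stability.

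The sequences below are those of the most abundant gene per length, of 5 of the genes that fell, and of SNORA7B, a gene whose near-identical copy fell. Each is the annotated transcript on GRCh38, read 5′ to 3′, and the capitals mark the match to the H box ANANNA nearest the centre and the ACA that ends 3 bases before the 3′ end. SNORA73A lies at chr1:28507366-28507571 on the plus strand, SNORA6 at chr3:39408389-39408539 and SNORA62 at chr3:39411054-39411206, both plus, and SNORA7B at chr3:129397210-129397348 on the minus strand. SNORA50C lies at chr17:64146339-64146471, the SNORA70 gene of Xq at chrX:154400281-154400415 and SNORA51 at chr20:2655067-2655198, all on the plus strand.
SNORA73A: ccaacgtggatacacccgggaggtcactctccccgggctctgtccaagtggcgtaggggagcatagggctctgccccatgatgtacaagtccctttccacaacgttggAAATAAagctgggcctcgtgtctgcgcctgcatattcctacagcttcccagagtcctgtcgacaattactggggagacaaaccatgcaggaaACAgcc
SNORA6: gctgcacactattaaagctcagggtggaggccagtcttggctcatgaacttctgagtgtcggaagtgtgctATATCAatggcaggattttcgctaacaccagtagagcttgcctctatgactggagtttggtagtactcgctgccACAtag
SNORA62: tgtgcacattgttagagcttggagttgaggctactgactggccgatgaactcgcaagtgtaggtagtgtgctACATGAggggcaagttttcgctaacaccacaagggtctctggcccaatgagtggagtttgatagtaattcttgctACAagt
SNORA7B: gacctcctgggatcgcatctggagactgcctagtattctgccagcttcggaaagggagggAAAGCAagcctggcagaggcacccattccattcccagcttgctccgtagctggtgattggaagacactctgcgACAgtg
SNORA50C: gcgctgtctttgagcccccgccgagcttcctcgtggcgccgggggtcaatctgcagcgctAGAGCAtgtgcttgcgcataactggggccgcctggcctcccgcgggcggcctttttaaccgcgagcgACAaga
SNORA70: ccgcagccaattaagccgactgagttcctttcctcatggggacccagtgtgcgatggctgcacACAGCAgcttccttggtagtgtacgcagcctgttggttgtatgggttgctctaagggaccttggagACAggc
SNORA51: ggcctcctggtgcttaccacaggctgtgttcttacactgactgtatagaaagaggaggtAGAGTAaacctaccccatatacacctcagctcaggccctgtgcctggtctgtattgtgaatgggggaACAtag

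The label held for most of the genes when checked against these letters, read on the strand of the gene. An ACA at that place stood in 96 of the 132 (72.7%), ANANNA in the central part in 123 (93.2%), and both in 92 (69.7%). Of 148 box C/D snoRNA genes, which carry other boxes, 2.03% had the ACA and 38.5% had ANANNA. Among 2237 other annotated transcripts of 126 to 201 bases these shares were 1.88% and 59.3%, so ANANNA alone is common. The 132 genes were 121 to 701 bases long, with a median of 134.

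SNORA73A and SNORA73B, the pair that acts in cutting the ribosomal RNA precursor, stood highest per length, with means of 362 and 302 CPM per kilobase over the 6 libraries. Next came SNORA32 at 98.6, SNORA12 at 88.5, SNORA63 at 84.1, the SNORA70 gene of Xq at 83.9, SNORA71A at 76.1 and SNORA40 at 74.4 CPM per kilobase. How fully these libraries captured RNAs this short was not measured, and mature snoRNA was not told apart from precursor RNA. The 132 genes together took up 0.0554%, 0.0525% and 0.0473% of the wild-type totals and 0.0506%, 0.0527% and 0.0523% of the mutant totals. The groups overlapped in this share, and wild-type replicate 1 held the highest value while wild-type replicate 3 held the lowest.

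SNORA73A had 92.3, 83.1 and 62.5 CPM in wild-type and 64.3, 71.6 and 73.4 CPM in mutant libraries. SNORA73B, 93.2% identical to it, had 72.6, 68.9 and 54.2 CPM against 55.8, 59.6 and 58.6 CPM. The groups overlapped for both, with wild-type replicate 3 as low as the mutant libraries. The log2 fold changes were -0.18 (edgeR adjusted p = 0.068) and -0.17 (edgeR adjusted p = 0.0388), short of the threshold used throughout, an adjusted p under 0.01 with an absolute log2 fold change over 0.5. Without wild-type replicate 1 they were -0.07 and -0.10, and without wild-type replicate 3 they were -0.35 and -0.30, so their size depends on these libraries. RCC1 was taken as their host by a rule that puts coding genes before noncoding ones. It encodes the exchange factor of the GTPase Ran and had a log2 fold change of -0.24. The noncoding gene SNHG3, an exon of which overlaps SNORA73A, was at -0.31. Ratios of the pair to SNHG3 were not tested.

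Of 131 tested genes, 14 were lower and 4 higher in mutant cells by edgeR's quasi-likelihood test with Benjamini-Hochberg adjustment over 28025 genes. These are 10.7% and 3.05% of the tested snoRNA genes, while of all genes tested 9.36% were lower and 11.0% higher, so the share of lower calls was near the background. At an adjusted p under 0.05 with no fold limit, 28 were lower and 9 higher, beside 25.6% and 25.9% of all genes. The median log2 fold change was -0.10 for the snoRNA genes and 0.01 for all genes, with 78 snoRNA genes below 0 and 53 above. These p-values measure the spread between libraries, since the study's methods speak of biological replicates in general and the labels do not say whether these libraries came from separate cultures. Scaling by library totals raised the median of all genes by 0.12, turned that of the snoRNA genes to 0.02 and left 8 snoRNA genes lower and 4 higher, with 69.4% of all calls in the higher direction in place of 53.9%.

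The wild-type libraries differed among themselves by more than the groups did in the median of the snoRNA genes. Against the wild-type mean, the median deviation in log2 CPM was 0.08, 0.01 and -0.08 in the wild-type libraries and -0.07, -0.09 and -0.10 in the mutant libraries. The range was 0.17 among wild-type and 0.03 among mutant libraries, and wild-type replicate 3 lay between the mutant values. The median difference is therefore no larger than the spread between wild-type libraries, and the median log2 fold change was -0.15 without wild-type replicate 3.

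The largest falls among genes of at least 1 CPM were on the short arm of chromosome 3, where 3 of 3 snoRNA genes fell. SNORA7A, at chr3:12840312-12840450 on the minus strand inside RPL32, had 7.83, 6.51 and 6.48 CPM in wild-type and 1.98, 2.36 and 2.71 CPM in mutant libraries. The groups did not overlap, and the level was 2.94-fold lower in mutant cells (log2 fold change -1.56, SE 0.11, edgeR adjusted p = 4.31e-11). Its host RPL32, which encodes a protein of the large ribosomal subunit, went from 716 ± 20.1 to 210.5 ± 2.17 CPM (SD, n = 3 libraries each), a log2 fold change of -1.77. The ratio of SNORA7A to RPL32 differed by 0.21 on the log2 scale (limma adjusted p = 0.335), so no difference from the host passed the threshold.

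SNORA7B, on the long arm of the same chromosome and without a host, differs from SNORA7A by 2 edits over 139 bases (98.6% identity). It had 1.77, 1.58 and 1.10 CPM in wild-type and 0.991, 1.42 and 1.32 CPM in mutant libraries, and the groups overlapped. The log2 fold change was -0.26 (SE 0.18, edgeR adjusted p = 0.244). Reads of copies this alike may be assigned to either place, so the level of each copy is uncertain, and whether the folds of the copies differ was not tested.

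SNORA6 and SNORA62 lie in RPSA, which encodes a protein of the small ribosomal subunit. SNORA6 had 8.01, 7.91 and 7.88 CPM in wild-type and 3.68, 3.45 and 3.61 CPM in mutant libraries, 2.22-fold lower (log2 fold change -1.15, SE 0.08, edgeR adjusted p = 3.96e-11). SNORA62 had 5.53, 5.86 and 5.12 CPM against 2.55, 2.79 and 2.20 CPM, 2.20-fold lower (log2 fold change -1.14, SE 0.11, edgeR adjusted p = 3.51e-09). Neither gene's groups overlapped. RPSA went from 1088 ± 27.3 to 555.2 ± 10.1 CPM (SD, n = 3 each), a log2 fold change of -0.97, and the ratios of SNORA6 and SNORA62 to it differed by -0.17 and -0.15 (limma adjusted p = 0.196 and 0.476).

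**Figure D1:**
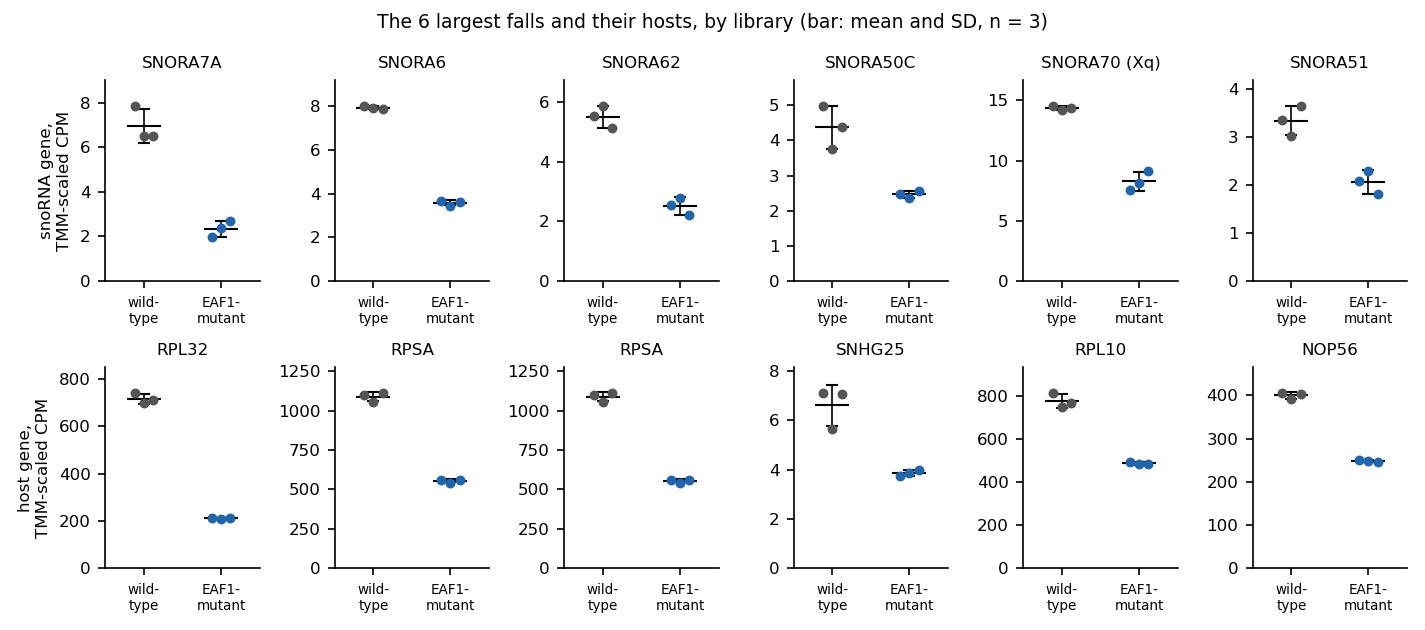
Level in CPM (y axes, from 0) of 6 snoRNA genes that fell (top) and of the host of each (bottom), with points for libraries and bars for mean and SD (n = 3). In each of these snoRNA genes the 3 mutant libraries lie below the 3 wild-type libraries, as for SNORA6 at 3.45 to 3.68 against 7.88 to 8.01 CPM.

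The protein-coding genes of 3p were lower as a group: 334 of 425 (78.6%) were lower and 5 higher past the threshold, with a median log2 fold change of -0.83. EAF1 is among the genes of this arm. Within 5 Mb on either side of SNORA7A the median over 79 coding genes was -1.59, and around SNORA6 and SNORA62 it was -0.82 over 51 genes. SNORA7A thus lay 0.73 below the arm median in log2 fold change but next to the median of its neighbourhood. The number of copies of this arm in the clone was not measured.

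Arms of low median held 7 of the 14 falls. The 5 arms of lowest coding median were 3p, 20p at -0.56, 10p at -0.44, Xq at -0.35 and 1q at -0.32, a split made after the values were seen. On them 7 of 15 snoRNA genes were lower and 0 higher by edgeR, with a median of -0.60. At an unadjusted p under 0.05 they were 12 lower and 0 higher, and with DESeq2 7 and 0. On the other arms 7 of 116 were lower (6.03%) and 4 higher, with a median of -0.08. Over all genes tested 9.36% were lower and 11.0% higher. Of 1693 tested coding genes on the same 5 arms 747 were lower (44.1%), so the share of 46.7% among the snoRNA genes there was near that of their neighbours. Over all tested snoRNA genes the median difference from the arm was -0.10, with 81 of 131 below their arm median, and 9 of the 14 lower genes differed from their arm by more than 0.5. Against the coding genes within 5 Mb on either side, 5 of the 14 differed by more than 0.5, SNORA13, SNORA16B, SNORA50C, SNORA57 and SNORA61. Across 128 snoRNA genes, one per place, the log2 fold change and the arm median had a Pearson correlation of 0.57 and a Spearman correlation of 0.32, and genes of an arm or a host are not independent replicates.

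**Figure D2:**
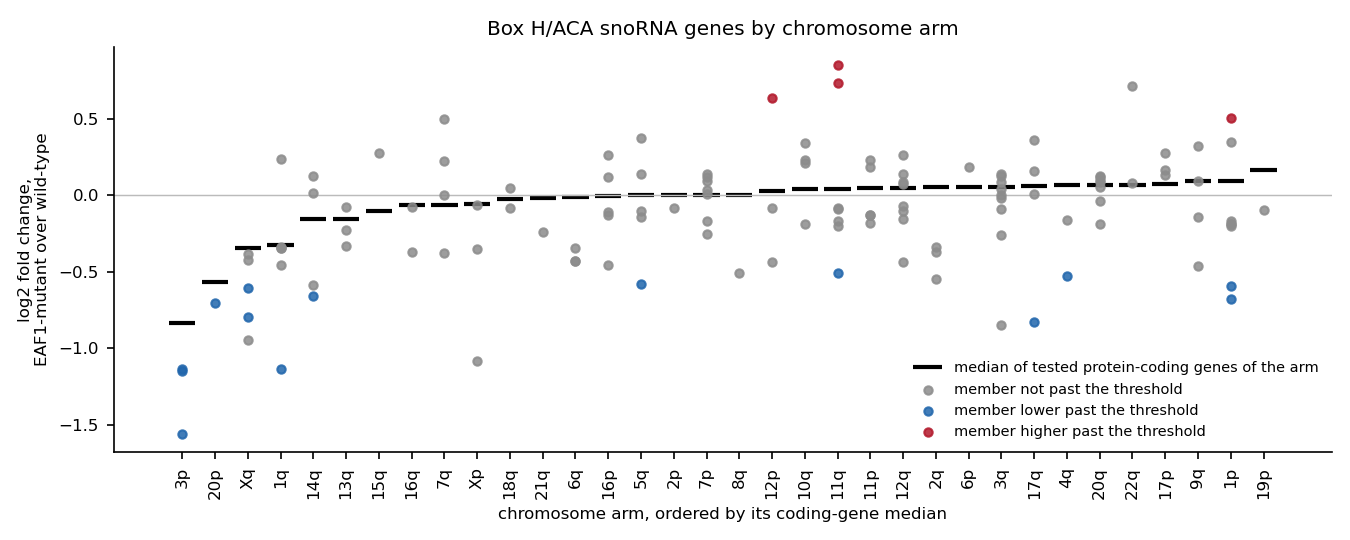
Log2 fold change, EAF1-mutant over wild-type, of each tested box H/ACA snoRNA gene (points, blue lower and red higher past the threshold) on the 34 chromosome arms that hold one, with black bars for the median of the arm's tested protein-coding genes. On 3p all 3 points lie below the arm median of -0.83.

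The next falls lay on other arms. The SNORA70 gene of Xq had 14.5, 14.2 and 14.4 CPM in wild-type and 7.59, 8.11 and 9.11 CPM in mutant libraries (log2 fold change -0.79, SE 0.07, edgeR adjusted p = 7.23e-10). RPL10, its host, which encodes a protein of the large ribosomal subunit, had a log2 fold change of -0.67 and the arm a median of -0.35. The groups did not overlap for this gene. Of the other SNORA70 genes, that of 14q had a log2 fold change of -0.59 (edgeR adjusted p = 0.192) and that of 3q one of 0.09 (edgeR adjusted p = 0.695).

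SNORA51 lies in NOP56, which encodes a core protein of box C/D snoRNA particles. It had 3.36, 3.03 and 3.64 CPM in wild-type and 2.08, 2.30 and 1.81 CPM in mutant libraries (log2 fold change -0.70, SE 0.12, edgeR adjusted p = 4.52e-05), and the groups did not overlap. NOP56 went from 400 ± 7.16 to 249 ± 2.21 CPM (SD, n = 3 each), a log2 fold change of -0.69, and 20p had a median of -0.56.

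SNORA50C lies in the long noncoding RNA gene SNHG25 and stood apart from its arm. It had 4.97, 3.74 and 4.39 CPM in wild-type and 2.47, 2.36 and 2.56 CPM in mutant libraries (log2 fold change -0.83, SE 0.11, edgeR adjusted p = 1.76e-06), and the groups did not overlap. SNHG25 went from 6.60 ± 0.836 to 3.86 ± 0.111 CPM (SD, n = 3 each), a log2 fold change of -0.77, while 17q had a median of 0.06. The difference of SNORA50C from SNHG25 was -0.05 (limma adjusted p = 0.779).

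The other 8 lower genes had log2 fold changes from -1.14 to -0.51. SNORA16B, on 1q and under 1 CPM, was at -1.14, SNORA66 in RPL5 at -0.68, SNORA79B in CCNB1IP1 at -0.66 and SNORA69 in RPL39 at -0.60. SNORA61 in SNHG12 was at -0.59, SNORA13 in EPB41L4A-AS1 at -0.58, SNORA24 in SNHG8 at -0.53 and SNORA57 in CSKMT at -0.51. Of the 14 lower genes, SNORA57 had the lowest adjusted p against its host. CSKMT had a log2 fold change of -0.09, and the ratio to it differed by -0.41 (limma adjusted p = 0.0253), which missed the threshold. SNORA16B lay further below its host PPP2R5A, which was at -0.48. Its ratio to PPP2R5A differed by -0.60 (limma adjusted p = 0.12) and missed the threshold too.

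Some falls depended on scaling, on the filter, on the tool or on single libraries, through the fold limit or the adjusted p. With library totals 6 genes lost their call. SNORA13 was at -0.46, SNORA24 at -0.41, SNORA57 at -0.39, SNORA61 at -0.47 and SNORA69 at -0.49. SNORA66 stayed over the fold limit at -0.56, with an edgeR adjusted p of 0.0167. SNORA66 also lost it without wild-type replicate 3 (-0.47) or mutant replicate 1 (-0.47), and SNORA24 without wild-type replicate 3 (-0.49). SNORA13 lost it without mutant replicate 2 (-0.52, edgeR adjusted p = 0.0155) or 3 (-0.48). SNORA57 lost it without wild-type replicate 2 (-0.47) or mutant replicate 1 (-0.48) or 3 (-0.49). SNORA57 also lost it with a filter of 1 CPM in 3 libraries (-0.49). DESeq2 did not call SNORA13 (adjusted p = 0.0151) or SNORA66 (adjusted p = 0.0163).

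Set against their hosts, the snoRNA genes showed 0 calls in the lower direction. The log2 ratio of each snoRNA gene to its host was tested with limma over 271 pairs of a snoRNA gene of any family and its host, and 116 of the 132 genes had a tested host. Of these 116, 0 were lower than the host and 3 higher, SNORA25, SNORA32 and SNORA59B, while among all 271 pairs 1.48% were lower and 1.48% higher. At an unadjusted p under 0.05, limma put 7 below and 19 above the host, and edgeR with the host as offset also gave 0 lower and 3 higher. The difference from the host was within 0.5 for 108 of 116, with a median of 0.02. That median was -0.01 without wild-type replicate 2, 0.06 without wild-type replicate 1 or mutant replicate 1 and 0.07 without mutant replicate 3. The count of 3 higher became 6 without wild-type replicate 1 and 2 without mutant replicate 1, 2 or 3.

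All 14 lower genes had a host with a log2 fold change below 0. A host below 0 was common, with a median of -0.11 over the 116 genes with a tested host. For 7 of the 14 the host was lower past the threshold, with RPSA as the host of both SNORA6 and SNORA62. Of 16 snoRNA genes in a host that was lower, 7 were lower (43.8%) and 0 higher by edgeR, with a median of -0.69. At an unadjusted p under 0.05 they were 11 lower and 0 higher, and with DESeq2 6 and 0. Of 100 tested genes in a host that was not called, 7 were lower (7%) and 3 higher, with a median of -0.08. Over all genes tested 9.36% were lower and 11.0% higher, so this lower share was near the background. Across 113 pairs the log2 fold changes of snoRNA gene and host had a Pearson correlation of 0.72 and a Spearman correlation of 0.66, and 0.78 and 0.68 across the 81 pairs of at least 1 CPM. These are correlations across genes, which share libraries and hosts and are not independent replicates. Pairs may also share reads, because 66 of the 132 lie in an annotated exon of another gene.

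**Figure D3:**
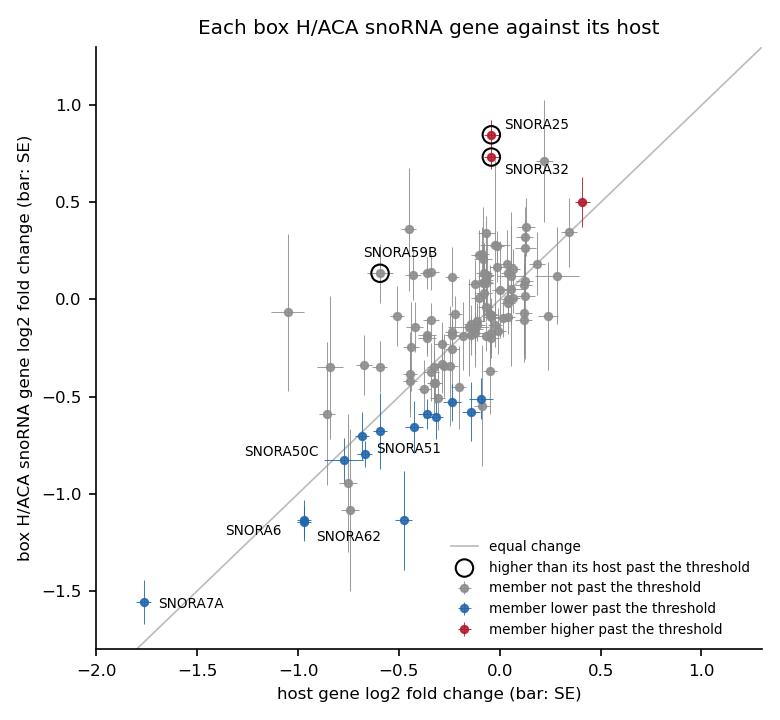
Log2 fold change of each box H/ACA snoRNA gene (y axis) against that of its host (x axis), EAF1-mutant over wild-type, with SE bars and a grey line of equal change; circles mark the 3 genes higher than the host past the threshold. SNORA25 and SNORA32 lie above the line at 0.85 and 0.73 for a host at -0.04, and SNORA7A lies at -1.56 for a host at -1.77.

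Genes in exons carried most of the calls, 11 lower (16.7%) and 3 higher of 66, with a median log2 fold change of -0.13. Of the 65 tested genes outside exons of other genes, 3 were lower (4.62%) and 1 higher, with a median of -0.08, and of all genes tested 9.36% were lower and 11.0% higher. The median of the mean raw counts was 239 for the first group and 50.8 for the second, and the part of depth in the number of calls was not tested. Outside exons the median difference from the host was 0.11, and 1 gene was higher than its host. In exons, reads of the gene that holds the exon, which is not always the host, cannot be told apart from reads of the snoRNA.

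Among classes of host, ribosomal protein genes held 18 snoRNA genes, of which 6 were lower (33.3%, against 9.36% of all genes tested) and 0 higher by edgeR (8 lower and 0 higher at an unadjusted p under 0.05, and 5 and 0 with DESeq2), with a median of -0.16 and a median difference from the host of -0.07. Other coding hosts held 77, of which 4 were lower (5.26%) and 3 higher of 76 tested, with a median of -0.08. Long noncoding hosts held 22, of which 4 were lower (18.2%) and 0 higher (8 lower and 2 higher at an unadjusted p under 0.05, and 3 and 0 with DESeq2), with a median of -0.07. The 15 genes without a host had 0 lower (2 at an unadjusted p under 0.05 and 0 with DESeq2) and 1 higher by edgeR, with a median of 0.00. Of all genes tested 11.0% were higher, and differences between these classes were not tested. Of 83 tested ribosomal protein genes themselves, 11 were lower and 1 higher.

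Hosts with several snoRNA genes showed the spread within a transcription unit. Of 82 hosts, 20 held at least 2 of the genes. The 4 in EIF4A2, which encodes a translation initiation helicase, had log2 fold changes from -0.09 to 0.14, and SNORA63 among them had 10.8, 10.8 and 10.1 CPM in wild-type and 12, 11.1 and 11.7 CPM in mutant libraries. Its groups did not overlap, with a log2 fold change of 0.14 (edgeR adjusted p = 0.071), which was 0.09 without wild-type replicate 3. The 5 in SNHG17 ranged from -0.19 to 0.12, and SNORA71A among them, at -0.04, had groups that overlapped and turned sign to 0.08 with library totals and to 0.0049 without mutant replicate 1.

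TAF1D, which encodes a subunit of the promoter selectivity factor of RNA polymerase I, held the largest spread of any host, from -0.20 to 0.85 over 6 box H/ACA genes. SNORA25, at chr11:93730513-93730646 on the minus strand, had 6.60, 6.89 and 5.59 CPM in wild-type and 11.3, 11.7 and 11.4 CPM in mutant libraries. SNORA32, at chr11:93730979-93731099 on the same strand, had 9.5, 8.94 and 8.46 CPM against 14.6, 14.6 and 15.6 CPM. In both genes every mutant library lay above every wild-type library. SNORA25 was 1.80-fold higher (log2 fold change 0.85, SE 0.07, edgeR adjusted p = 1.41e-09) and SNORA32 1.66-fold higher (0.73, SE 0.06, edgeR adjusted p = 8.8e-10).

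TAF1D itself went from 216 ± 5.96 to 209.8 ± 4.70 CPM (SD, n = 3 each), a log2 fold change of -0.04 (edgeR adjusted p = 0.354). Relative to it, SNORA25 was higher by 0.89 (SE 0.08, limma adjusted p = 0.000169) and SNORA32 by 0.77 (SE 0.06, limma adjusted p = 0.000116), or 1.86-fold and 1.71-fold. The other 4 box H/ACA genes of TAF1D and its 2 box C/D genes did not pass the threshold. In 5′ to 3′ order their log2 fold changes were -0.20 for SNORA40, -0.09 for SNORA18, -0.05 for SNORD5, -0.08 for SNORA8, -0.17 for SNORA1 and -0.17 for SNORD6. SNORA32 and SNORA25 follow as the most 3′ of the 8.

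SNORA25 and SNORA32 are not copies of each other, with 52.2% identity over their length. With the annotated exons of TAF1D merged, both lie in the most 3′ exon, while SNORA40, SNORA18, SNORD5, SNORA8 and SNORA1 lie in the next exon from that end. Reads over the place of either gene may count for it and for TAF1D alike, and exonic reads of TAF1D cannot be told apart from the snoRNAs in these counts. SNORA40 had 9.16, 11.1 and 9.81 CPM in wild-type and 9.08, 8.08 and 8.98 CPM in mutant libraries. Its groups did not overlap, but its adjusted p of 0.0319 by edgeR missed the threshold, and its log2 fold change was -0.13 without wild-type replicate 2.

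**Figure D4:**
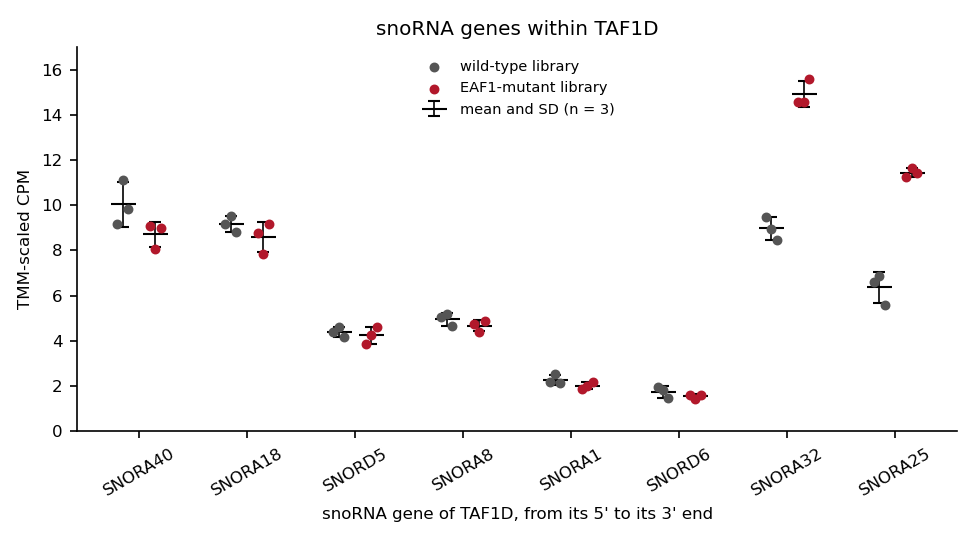
Level in CPM (y axis, from 0) of the 8 snoRNA genes of TAF1D in each library, in 5′ to 3′ order (x axis), with points for libraries and bars for mean and SD (n = 3). Mutant libraries lie above wild-type libraries for SNORA32 and SNORA25, the 2 genes at the 3′ end.

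SNORA59B, an entry of 701 bases at chr17:19557211-19557911 on the plus strand, did not pass the test itself, while its host fell. It had 1.27, 1.37 and 1.10 CPM in wild-type and 1.38, 1.37 and 1.36 CPM in mutant libraries, with overlapping groups and a log2 fold change of 0.13 (edgeR adjusted p = 0.486), or 0.04 without wild-type replicate 3. SLC47A1, which encodes an exporter of organic cations, went from 14 ± 0.975 to 9.28 ± 0.193 CPM (SD, n = 3 each), a log2 fold change of -0.59. The ratio was higher by 0.73 (SE 0.11, limma adjusted p = 0.00213), and without mutant replicate 1, 2 or 3 it was 0.74, 0.72 and 0.72 (limma adjusted p = 0.0105, 0.0154 and 0.0115) and no longer passed the threshold. The whole of SNORA59A, on 1p and at a log2 fold change of 0.34, is found in SNORA59B at 100% identity, so reads of these genes may be assigned to either place and the level of SNORA59B is uncertain. SNORA28 at 0.56, SNORA53 at 0.51 and SNORA74D at 0.49 above the host missed the threshold too. SNORA38B, at 0.36 in NOL11 at -0.45, and SNORA11D, at -0.07 in MAGED4 at -1.05, lay further above their hosts and were not called either.

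The calls of the remaining 2 higher genes depended on the tool and on single libraries. SNORA55, in PABPC4, which encodes a cytoplasmic poly(A)-binding protein, had 1.82, 1.78 and 1.53 CPM in wild-type and 2.43, 2.28 and 2.55 CPM in mutant libraries (log2 fold change 0.50, edgeR adjusted p = 0.00216), and PABPC4 was at 0.41. The SNORA75 gene at chr12:31076867-31077016 on the minus strand had 0.902, 0.890 and 0.673 CPM against 1.33, 1.37 and 1.16 CPM (log2 fold change 0.64, edgeR adjusted p = 0.00399). The groups did not overlap in either gene. Both calls were lost with DESeq2 and without wild-type replicate 3, where the log2 fold changes were 0.41 and 0.50. SNORA55 also lost its call without mutant replicate 3 (0.46). The SNORA75 gene lost its call without mutant replicate 1 (0.61, edgeR adjusted p = 0.0166) or 2 (0.59, edgeR adjusted p = 0.0193).

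That SNORA75 gene has a copy of 98.7% identity, so its level is uncertain. The other SNORA75 genes had log2 fold changes of -0.37 on 2q, in the nucleolin gene NCL, and of -0.44 and -0.08 on 12p. Of the 132 genes, 39 have a copy of at least 90% identity over their own length, which leaves out the longer SNORA59B, and 3 of these were lower (7.69%) and 1 higher by edgeR. Of the 92 tested genes without such a copy, 11 were lower (12%) and 3 higher, and both lower shares were near the 9.36% of all genes tested, of which 11.0% were higher.

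SNORA12, among the most abundant per length, had 13.7, 11.4 and 9.32 CPM in wild-type and 14.5, 13.9 and 15.2 CPM in mutant libraries. The groups did not overlap, but the log2 fold change of 0.34 (SE 0.09, edgeR adjusted p = 0.00229) stayed under the fold limit. It was 0.20 without wild-type replicate 3 and 0.48 without wild-type replicate 1. Its host CWF19L1 was at -0.07, and the difference from it of 0.43 (limma adjusted p = 0.0604) missed the threshold.

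Of 25 genes listed for the making of box H/ACA particles and for pseudouridine, 3 were lower and 0 higher by edgeR (14 lower and 5 higher at an unadjusted p under 0.05, and 3 and 0 with DESeq2), with a median of -0.16. The lower share was 12%, against 9.36% of all genes tested, of which 11.0% were higher. At an adjusted p under 0.05 with no fold limit 14 were lower (56%) and 4 higher (16%), against 25.6% and 25.9% of all genes, and the difference from all genes was not tested. SHQ1, the chaperone of dyskerin, had 64.6, 64.5 and 61.9 CPM in wild-type and 35.2, 35.0 and 35.6 CPM in mutant libraries (log2 fold change -0.85, edgeR adjusted p = 2.51e-14), and it lies on 3p. DIS3, a catalytic subunit of the exosome, went from 310 ± 11.4 to 212 ± 5.66 CPM and PUS7, a stand-alone pseudouridine synthase, from 76.3 ± 2.56 to 52.4 ± 2.49 CPM (SD, n = 3 each), with log2 fold changes of -0.55 and -0.54. The groups did not overlap for these 3 genes.

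Of the genes of the 4 core proteins 0 were called by edgeR (3 lower at an unadjusted p under 0.05 and 0 with DESeq2). DKC1, which encodes dyskerin, the pseudouridine synthase, was at 194 ± 6.29 and 142 ± 1.00 CPM (SD, n = 3 each; log2 fold change -0.45, edgeR adjusted p = 3.94e-10), GAR1 at -0.34, NHP2 at -0.20 and NOP10 at 0.02. Of 6 assembly genes SHQ1 alone passed, with RPAP3 at -0.28 and RUVBL2 at 0.24. Among 5 genes of 3′ end maturation, DIS3 alone passed, with TENT4B at -0.34, PARN at -0.03, EXOSC10 at 0.40 and TOE1 at 0.45. Among 6 stand-alone pseudouridine synthases PUS7 alone passed, with PUS1 at -0.34. The debranching enzyme DBR1 was at -0.21, the telomerase RNA TERC, which carries an H/ACA domain, at -0.40, and the Cajal body genes WRAP53 and COIL at -0.16 and 0.04.

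**Figure D5:**
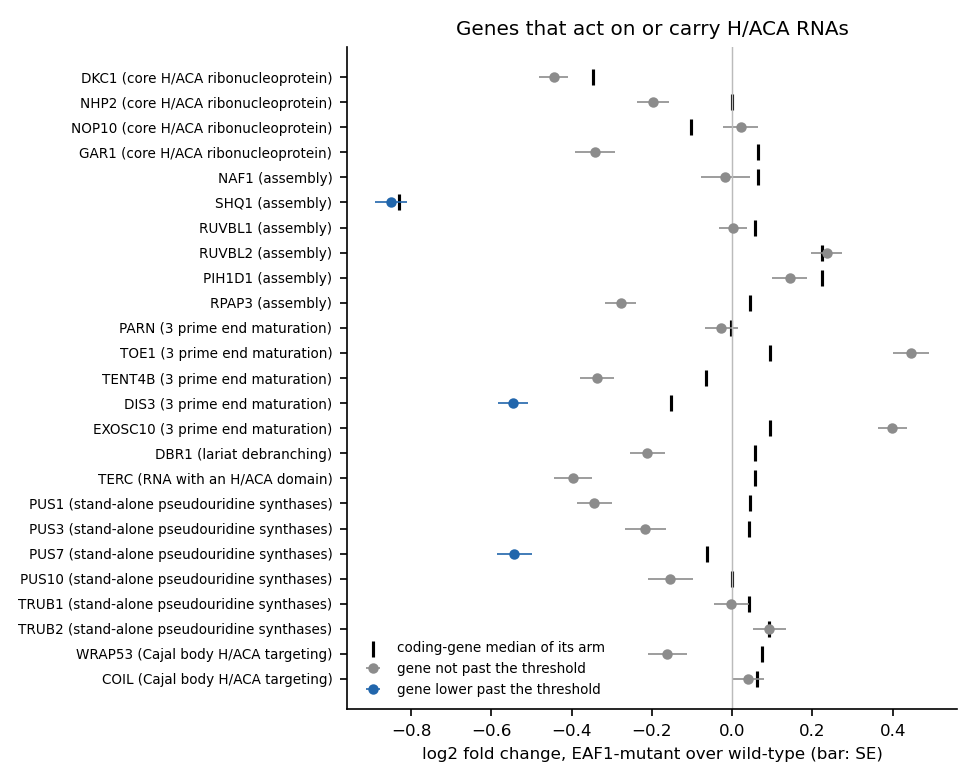
Log2 fold change with its SE (x axis), EAF1-mutant over wild-type, of 25 genes for box H/ACA particles and pseudouridine, with black ticks for the coding-gene median of the arm of each. SHQ1 at -0.85, next to the median of 3p at -0.83, DIS3 at -0.55 and PUS7 at -0.54 are past the threshold (blue).

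Beside other snoRNA families, 33 of 148 box C/D genes were lower (22.3%) and 4 higher (2.70%) by edgeR, with a median of -0.20. Of all genes tested 9.36% were lower and 11.0% higher. Among 134 box C/D pairs 4 were lower and 1 higher than the host, against 1.48% and 1.48% of all 271 pairs. These 4 were the only lower calls among the 271. Of 22 small Cajal body RNA genes 0 were lower and 0 higher by edgeR or DESeq2 (5 lower and 8 higher at an unadjusted p under 0.05), with a median of -0.02. Differences between the families were not tested.

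At the edge of the count rule, 122 of the 132 genes reached 10 counts in all 6 libraries and 10 in some libraries of both groups, and 0 entered through libraries of 1 group. Just inside lay SNORA11D, with raw counts of 8, 9 and 14 in wild-type and 15, 7 and 12 in mutant libraries, and SNORA70D, the gene too low to test, with 12, 3 and 8 against 14, 5 and 11. Just outside lay the SNORA62 copies of 4q, with 9, 10 and 1 against 10, 9 and 8, and of 8p, with 8, 11 and 6 against 14, 3 and 5. The SNORA63 copy of 1p, with 9, 4 and 6 against 11, 7 and 11, lay there too. The median of the mean raw counts was 95.6, and 88 genes had at least 1 CPM, so that folds of the rarest genes carry wide errors.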

How the data were processed

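Total RNA of 3 wild-type and 3 EAF1-mutant HEK293T libraries was depleted of ribosomal RNA and read as stranded paired ends. The authors trimmed reads, aligned them with HISAT2 to GRCh38 and counted them per Ensembl gene with Rsubread, and the deposited values are raw counts. Their settings for strand and for reads with several matches are not stated. Genes annotated in duplicate at the same place had equal or nearly equal counts.

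Hosts, exons, arms and sequences came from GENCODE annotation of GRCh38, with arms split at approximate centromere positions. A host was the coding gene around the snoRNA gene on its strand or, failing that, the long noncoding gene around it. Where there were several, the gene of smallest span was taken, and readthrough genes were left out. Genes were filtered by filterByExpr, scaled by TMM and tested in edgeR 4.0.16 (R 4.3.3) with the quasi-likelihood test and Benjamini-Hochberg adjustment over 28025 genes. CPM are TMM-scaled. A call needed an adjusted p under 0.01 and an absolute log2 fold change over 0.5. Log2 ratios to the host, with a prior count of 2, were tested in limma 3.58.1 over 271 pairs. DESeq2 1.42.0 was an alternative, and Python 3.11.15 made summaries. Totals ran from 52541541 to 66611451 counts, and the biological coefficient of variation was 4.11%. The tests were tried on simulated data.

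Named genes were the 8 highest per kilobase and the 6 largest falls past the threshold. The limits of 6 rises, 5 genes below the host and 5 above it were not reached, with 4, 0 and 3 past the threshold. All of these sets but the first needed at least 1 CPM. Also named were every gene of 3p, the hosts of the genes named, genes at the edge of the count rule, and the listed genes. Other genes were named after their values were seen. The genes and lists were chosen with earlier results of these data known. Alternatives were DESeq2, library totals, other filters and thresholds, a replicate block, each library left out, host offsets, and members outside exons.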

Additional observations from a re-analysis of the deposited data

How the results depend on the processing

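With DESeq2, 2 box H/ACA genes were higher in place of 4. With library totals 8 were lower in place of 14, and the median turned from -0.10 to 0.019, while the median of all genes moved by 0.12. At an adjusted p under 0.05 with no fold limit 28 were lower and 9 higher. Leaving out each library in turn gave 13 to 14 lower and 2 to 4 higher, medians from -0.149 to -0.0848, medians against the arm from -0.109 to -0.0667, and 2493 to 2664 lower and 2790 to 2924 higher among all genes. Against the host it gave 0 lower and 2 to 6 higher, with 6 without wild-type replicate 1 and 2 without each mutant library, and medians from -0.01 (-0.0052, without wild-type replicate 2) to 0.0718. With the host as edgeR offset the median difference was 0.01 (0.0052), and with genes outside exons alone 1 was higher and the median was 0.11, where fewer genes were tested. For the other changes the cause was not tested.

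Replicate numbers carried no pairing, with correlations of -0.01, -0.02 and 0.01, and a replicate block gave 14 lower and 4 higher, and 4 higher than the host. Of the 18 genes called, 10 kept their call in every alternative fit that tested them. The log2 fold change of SNORA71A turned to 0.0754 with library totals and ran from -0.12 to 0.0049 with each library left out. For the 17 snoRNA genes that the naming rule picked, 188 values kept direction and side of the threshold, 10 kept direction but lost the threshold and 2 turned. A further 6 called genes lost the threshold 17 times. Taking 1 gene per place was added after seeing the data. Low depth limits genes near 10 counts.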
